A study of Mus musculus with 8 samples.

Results

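The interferon, IRF and STAT genes of a myeloid gene panel were followed in 8 samples of cells sorted from mouse conjunctiva. The genes were chosen by name, as every row beginning with Irf, Ifi, Ifn, Isg, Oas, Gbp, Stat or Jak, or named Mx1, Mx2, Tyk2 or Rsad2. That gave 25 of the 754 genes in the table. They comprised 3 interferons (Ifna1, Ifnb1 and Ifng), 3 receptor chains (Ifnar1, Ifnar2 and Ifngr1), the kinase Jak3, 6 STAT genes, 7 IRF genes and 5 interferon-induced genes (Ifit1bl1, Ifit1bl2, Isg15, Mx1 and Mx2). Oas and Gbp genes, Tyk2 and Rsad2 were not analysed here.

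The animals were female C57BL/6J mice of an age of 10 weeks per the labels. NS mice were kept in a non-stressed environment, and DS5 mice had desiccating stress for 5 days, with scopolamine in the drinking water to suppress tear secretion and a fan draft at low humidity. The methods name the excised tissue as conjunctival epithelium. From each condition the CD11b+ cells were sorted into MHCII+ cells and, among MHCII-CD64+ cells, by their Ly6C: high (the monocytes of the study), intermediate (Ly6C-inter) or low (Ly6C-low). Each of the 8 groups was 1 sample pooled from the conjunctivae of many mice, so there was no replicate of any group and no p-value is given. RNA was hybridized to NanoString nCounter probes, and the fluorescent barcode of each transcript was counted without amplification.

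Interferons signal through paired receptor chains at the cell surface. Kinases of the JAK family bound to these chains phosphorylate STAT proteins, which move to the nucleus and bind gamma-activated sites or, together with IRF9, interferon-stimulated response elements. IRF proteins bind related elements, and some of them switch on the interferon genes themselves, so that the pathway feeds back on itself. IFN-gamma is known in dry eye for its link with loss of conjunctival goblet cells, and macrophages respond to it by raising antigen presentation.

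The total count over all genes was 39677 and 30335 in the MHCII+ samples of NS and DS5, and the 6 MHCII- samples had 2728 to 14201. A gene was taken as detected when its raw count was above the limit of its sample, set from the 8 negative control probes at their mean + 2 SD, a value between 11.2 and 23.0 counts. Fewer cells and less RNA per cell cannot be told apart in these pooled samples, and both can affect the total. The methods do not state the amount of RNA put into each hybridization, which can affect it too. For comparisons the counts were scaled to equal totals, values under 1 were set to 1, and the log2 ratio of 2 samples was given with an exact 95% interval that covers counting error only. A gene was called when its log2 ratio was at least 1.5 (DS5 over NS) or 2 (between populations) in either direction, the higher count was above the limit of its sample and the interval excluded 0.

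The sample of DS5 Ly6C-inter cells stood apart from the other 7. Its highest counts were those of Emp1, S100a11, S100a10 and Ly6c1, which together made up 25.4% of its total. Emp1, an epithelial membrane protein, had 1436 counts there and at most 97 elsewhere, and F11r, a tight junction protein, had 92 counts there and at most 6 elsewhere. The cell adhesion gene Ceacam1 had 115 counts in this sample and at most 10 in the others. These genes were picked after their values were seen, from 22 genes called higher with stress in this population. The 22 also held Itgam, which encodes the sort marker CD11b, with 161 counts here and at most 91 elsewhere. Pglyrp1, another of them, had 196 counts here and at most 7 elsewhere. Emp1 was above the limit in every sample except NS monocytes. Of 3 epithelial markers listed, Cdh1 (E-cadherin) was measured, and its 16 counts in this sample were below the limit of 23.0. The other samples had 1 to 5 counts of it, also below their limits. Scaled to equal totals Cdh1 was 15.0 there, 17.0 in DS5 monocytes (5 counts) and 13.1 in DS5 Ly6C-low cells (4 counts). Since all these counts were below the limits, they cannot show whether its share was higher in this sample. The 7 neutrophil genes of the list made up 0.549% of the total here, 0.521% in NS Ly6C-inter cells and 0.55% and 0.713% in NS and DS5 monocytes. In both monocyte samples 0 of the 7 were above the limit, so those shares are of background counts. Only S100a9 was above the limit in any sample. It had 55 counts here, 16 in NS Ly6C-inter cells, where it was also detected, and at most 7 elsewhere. Of the listed markers of T, NK and B cells (2 of 11 measured), plasmacytoid dendritic cells (1 of 4) and mast cells (3 of 3), 0 were above the limit in any sample. Among the 8 macrophage markers 6 were above the limit in both NS and DS5 Ly6C-inter cells. By share the 8 were lower in this sample, at 2.605% of its total against 6.406% in NS Ly6C-inter cells. The MHCII label was matched by its transcripts, since H2-Aa had 3419 and 2635 counts in the MHCII+ samples and 12 to 22 in the others. The Ly6C label was not matched by Ly6c1, a gene of the Ly6C antigen. The sample labelled DS5 Ly6C-inter had 583 counts of it, or 547.4 (503.9 to 593.7) when scaled, whereas DS5 and NS monocytes, labelled Ly6C-high, had 16 and 8 counts, or 54.3 (31.0 to 88.2) and 39.1 (16.9 to 77.1). In NS Ly6C-inter and NS Ly6C-low cells Ly6c1 was at 8 and 7 counts, below the limit as in NS monocytes. Fcgr1, which encodes CD64, was below the limit in all 6 CD64+ samples. All calls of higher genes with stress below rest on this sample.

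Of the 25 genes, 12 (48.0%) were above the limit in NS MHCII+ cells, against 38.6% of all genes, and 9 (36.0%) in DS5 MHCII+ cells, against 28.2%. In NS and DS5 monocytes 0 of 25 were above it, against 3.18% and 6.9% of all genes. NS Ly6C-inter cells had 2 (14.6% of all genes), DS5 Ly6C-inter cells had 4 (13.0%), and the NS and DS5 Ly6C-low cells had 1 each (12.7% and 8.49%). The share of detected genes in this group was thus above that of the panel in both MHCII+ samples and in DS5 Ly6C-inter cells, and below it in the other 5. With 25 genes each of these gaps came to few genes and was not tested. In DS5 MHCII+ cells the 9 fell to 5 with a limit of the mean + 3 SD. In at least 1 sample 13 genes were detected, or 52.0% against 41.2% of all genes, and 12 remained without DS5 Ly6C-inter cells, since Ifit1bl1 was detected nowhere else. Among the 13 were Ifit1bl1, Ifnar1, Ifnar2, Ifngr1, Irf1, Irf2, Irf4, Irf5, Irf8, Isg15, Stat3 and Stat6.

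**Figure D1:**
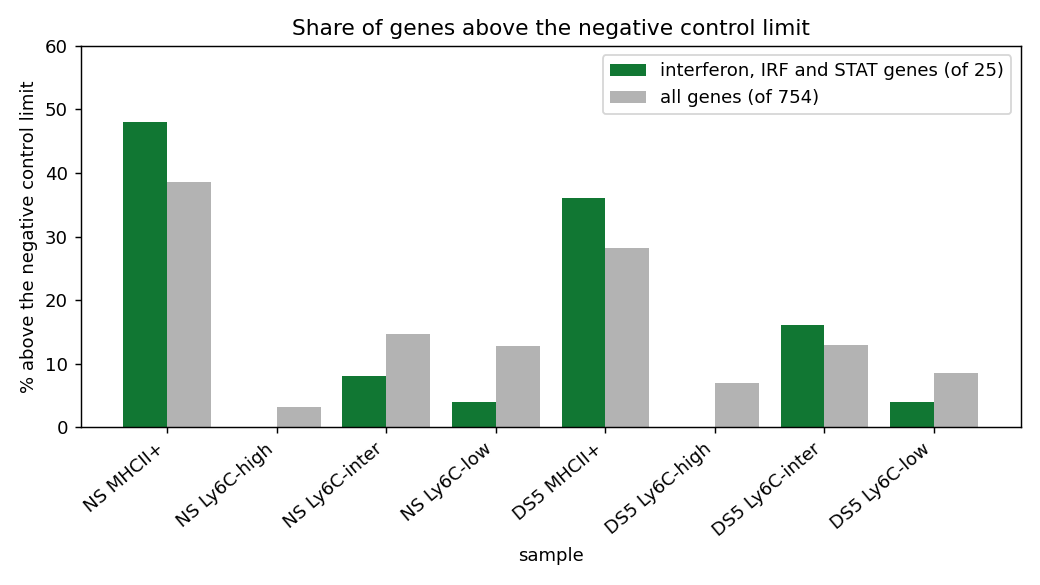
Share (%) of the 25 interferon, IRF and STAT genes (green) and of all 754 genes (grey) above the negative control limit in each of the 8 samples. The green bar is higher in both MHCII+ samples (48.0% and 36.0%) and in DS5 Ly6C-inter cells (16.0%), and both monocyte samples are at 0.

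**Figure D2:**
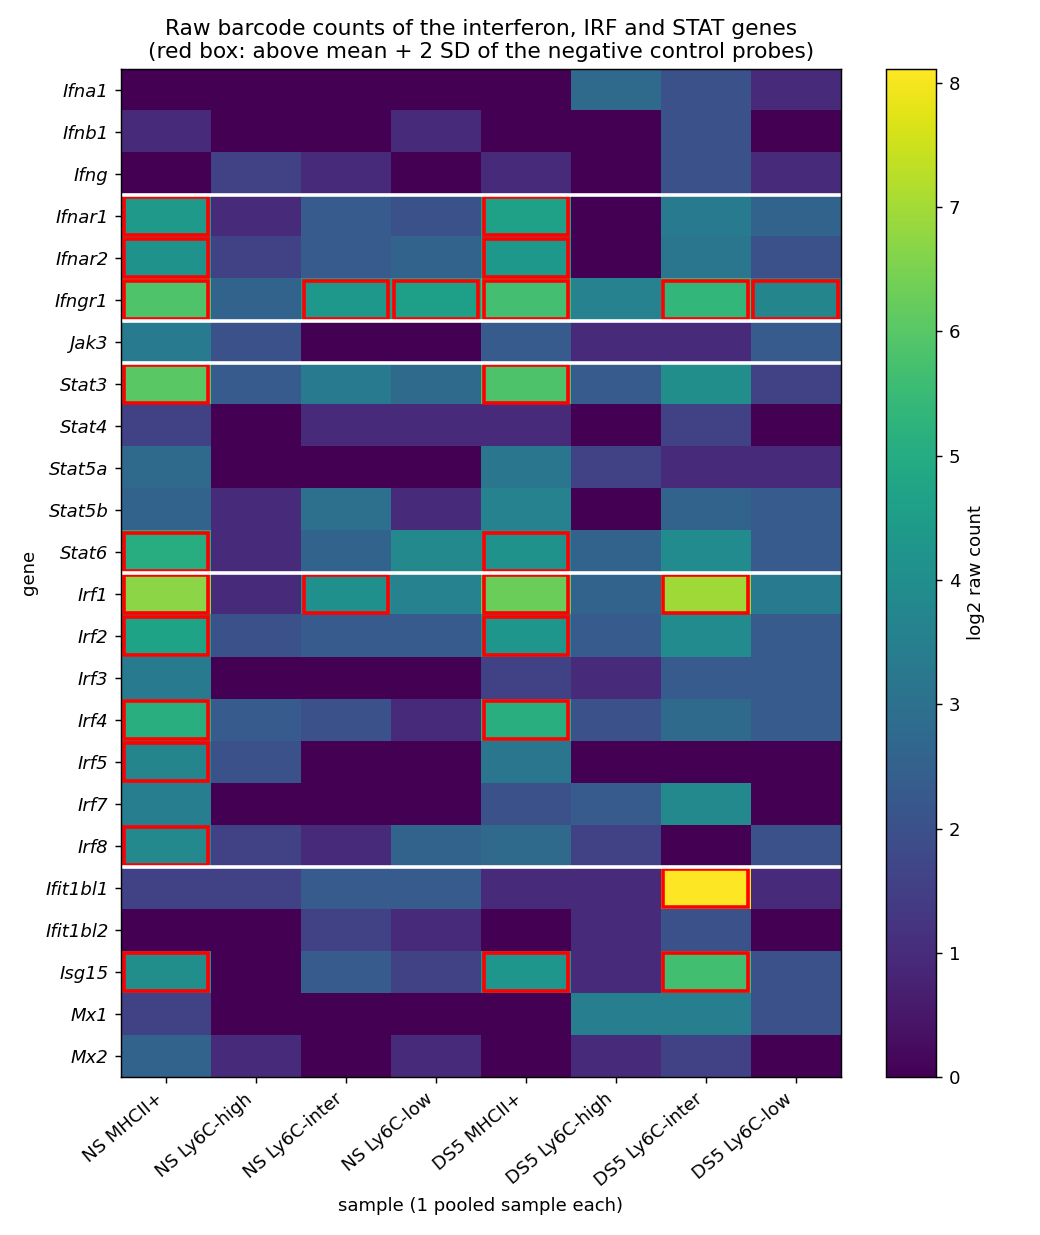
Raw barcode counts of genes of the group (rows, grouped by role from ligands to induced genes) in the 8 samples (columns) as colour on a log2 scale, with red boxes around counts above the negative control limit of the sample. Most boxes are in the MHCII+ columns, and the brightest cell is Ifit1bl1 in DS5 Ly6C-inter cells, with 277 counts.

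The 3 interferon genes were at background level in every sample. Ifna1, an interferon of type I, had 1 count in each NS sample and 1, 7, 4 and 2 counts in DS5 MHCII+ cells, monocytes, Ly6C-inter and Ly6C-low cells. Ifnb1 and Ifng had 1 to 4 counts throughout. At this depth a level below the limit, and any change in it with stress, was not detectable.

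The receptor chains were measured best in MHCII+ cells. Ifngr1, the ligand-binding chain of the IFN-gamma receptor, was above the limit in 6 of the 8 samples, more than any other gene of the group. It had 59, 6, 20 and 24 counts in NS MHCII+ cells, monocytes, Ly6C-inter and Ly6C-low cells, whereas the DS5 counts in that order were 52, 12, 41 and 13. Both monocyte samples were below their limits. The log2 ratio of DS5 over NS was 0.21 (95% interval -0.36 to 0.77) in MHCII+ cells, -0.22 (-1.02 to 0.63) in Ly6C-inter cells and -0.37 (-1.47 to 0.66) in Ly6C-low cells, so the intervals all included 0.

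As a share of the total, Ifngr1 was lower in NS MHCII+ cells than in Ly6C-inter cells, with a log2 ratio of -1.18 (-1.93 to -0.37), and than in Ly6C-low cells, with -1.48 (-2.18 to -0.73). Neither reached the threshold of 2, and both turned positive without scaling, at 1.56 and 1.30. In NS MHCII+ cells Cd74, H2-Aa, Retnla and H2-Ab1 alone made up 34.9% of the total.

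Ifnar1 and Ifnar2, the chains of the type I interferon receptor, were detected in MHCII+ cells of both conditions and in no other sample. The MHCII+ samples had the highest totals. Ifnar1 had 21, 2, 5 and 4 counts in NS MHCII+ cells, monocytes, Ly6C-inter and Ly6C-low cells, while DS5 gave 25, 1, 10 and 6. Ifnar2 had 18, 3, 5 and 6 counts in NS and 20, 1, 9 and 4 in DS5. Between DS5 and NS MHCII+ cells the log2 ratios were 0.64 (-0.26 to 1.55) and 0.54 (-0.45 to 1.54), which did not exceed the counting error.

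Jak3, a kinase of cytokine receptors that carry the common gamma chain, had 10, 4, 1 and 1 counts in the NS populations and 5, 2, 2 and 5 in DS5, all below the limits. Stat3, which carries signals of the IL-6 and IL-10 families, was the STAT gene with the highest counts. It had 65, 5, 10 and 7 counts in NS MHCII+ cells, monocytes, Ly6C-inter and Ly6C-low cells, while DS5 gave 57, 5, 16 and 3. The MHCII+ samples, which had the highest totals, were the only 2 above the limit, and their log2 ratio was 0.20 (-0.34 to 0.73).

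Stat6, the mediator of IL-4 and IL-13 signals, had 33, 2, 6 and 14 counts in the NS samples and 18, 6, 15 and 5 in the DS5 samples. It was detected in both MHCII+ samples, with a log2 ratio of -0.49 (-1.40 to 0.38) between them.

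Stat4, Stat5a and Stat5b were below the limit in all samples. Stat5b, which carries growth hormone and cytokine signals, had 6, 2, 8 and 2 counts in NS and 12, 1, 6 and 5 in DS5. The limit in DS5 MHCII+ cells was 15.3, and the log2 ratio in MHCII+ cells, 1.39, had an interval of -0.14 to 3.09 that included 0. Stat4, which transmits IL-12 signals, had 1 to 3 counts and Stat5a, a mediator of growth factor and GM-CSF signals, had 1 to 9.

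Among the IRF genes, Irf1 had the highest counts. Irf1 is an activator of interferon-induced and antigen presentation genes that IFN-gamma itself induces. It had 104, 2, 17 and 12 counts in NS MHCII+ cells, monocytes, Ly6C-inter and Ly6C-low cells, while DS5 gave 79, 6, 123 and 10. The DS5 Ly6C-inter value was the highest, and both monocyte samples and both Ly6C-low samples were below their limits.

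After scaling, Irf1 stood at 34.95 (95% interval 28.6 to 42.4) and 34.7 (27.5 to 43.3) in NS and DS5 MHCII+ cells, 38.1 (22.2 to 61.0) in NS Ly6C-inter cells and 115.5 (96.0 to 137.8) in DS5 Ly6C-inter cells. The first 3 of these intervals overlapped, and the last was above them. In MHCII+ cells the log2 ratio of DS5 over NS was -0.01 (-0.45 to 0.43).

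Irf4, a factor of dendritic cells and of alternatively activated macrophages, had 34, 5, 4 and 2 counts in NS and 34, 4, 7 and 5 in DS5. Irf2, which can oppose Irf1 at shared sites, had 26, 4, 5 and 5 counts in NS and 19, 5, 15 and 5 in DS5. Both were above the limit in the MHCII+ samples of NS and DS5, which had the highest totals, and in no other sample. Scaled to equal totals, Irf2 was 8.74 and 8.35 in NS and DS5 MHCII+ cells and 11.2 to 19.55 elsewhere. Irf4 was 11.4 and 14.95 in those cells and 4.60 to 24.4 elsewhere. The values elsewhere came from raw counts below the limits. The stress ratios of Irf4 and Irf2 in MHCII+ cells were 0.39 (-0.34 to 1.12) and -0.07 on the log2 scale, and both intervals included 0.

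Irf8, needed for the development of monocytes and dendritic cells, had 14, 3, 2 and 6 counts in NS and 7, 3, 1 and 4 in DS5. Irf5, an activator of inflammatory cytokine genes downstream of Toll-like receptors, had 13, 4, 1 and 1 counts in NS and 9, 1, 1 and 1 in DS5. Each was above the limit in NS MHCII+ cells alone, the sample with the highest total. For both genes the interval of DS5 over NS in MHCII+ cells included 0, at -0.61 (-2.16 to 0.79) for Irf8 and -0.14 (-1.55 to 1.20) for Irf5.

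Irf3, which nucleic acid sensors activate, had 10, 1, 1 and 1 counts in NS and 3, 2, 5 and 5 in DS5. Irf7, which amplifies type I interferon production, had 11, 1, 1 and 1 counts in NS and 4, 5, 14 and 1 in DS5. Neither passed the limit in any sample, although the 11 counts of Irf7 in NS MHCII+ cells were just under the limit of 11.2. In monocytes Irf7 had a log2 ratio of DS5 over NS of 1.80 with an interval of -1.36 to 7.36, and in Ly6C-inter cells it had 2.55 (-0.16 to 7.95).

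The interferon-induced genes included the largest difference of the group. Ifit1bl1 belongs to the family of interferon-induced proteins with tetratricopeptide repeats and resembles Ifit1. It had 3, 3, 5 and 5 counts in NS MHCII+ cells, monocytes, Ly6C-inter and Ly6C-low cells, while DS5 gave 2, 2, 277 and 2. Its level in DS5 Ly6C-inter cells was far above all others, which were at background level. The probe sequence is not in the sources used here, so transcripts of related Ifit1 genes could not be told apart from it, although Ifit1bl2 had 1 to 4 counts in all samples.

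Isg15, a ubiquitin-like modifier, had 16, 1, 5 and 3 counts in NS and 19, 2, 51 and 4 in DS5. It was above the limit in both MHCII+ samples and in DS5 Ly6C-inter cells. Scaled to equal totals it was 5.38 (3.07 to 8.73) and 8.35 (5.03 to 13.0) in NS and DS5 MHCII+ cells and 47.9 (35.7 to 63.0) in DS5 Ly6C-inter cells, whose interval lay above both.

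Mx1 and Mx2 encode dynamin-like antiviral GTPases and were below the limit throughout. Mx1 had 3, 1, 1 and 1 counts in NS and 1, 11, 11 and 4 in DS5. Its log2 ratio of DS5 over NS in monocytes was 2.93 (0.15 to 8.36), the only interval of the group in monocytes that excluded 0, but the 11 counts equalled those of the negative control probe with the highest count in that sample, and the limit was 14.0. Mx2 had at most 6 counts.

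**Figure D3:**
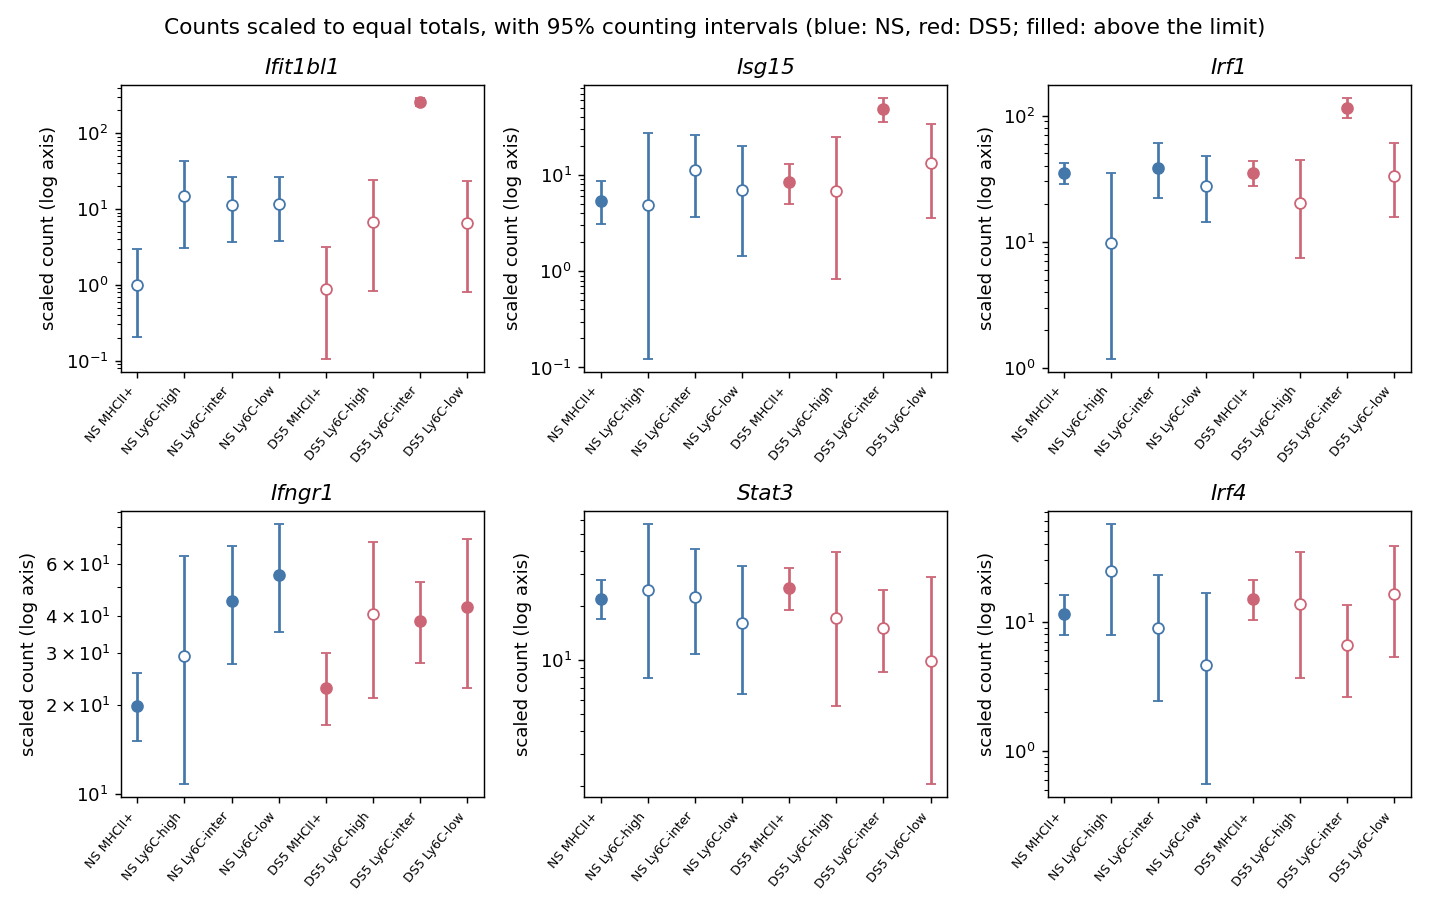
Counts scaled to equal totals (log axis) with exact 95% Poisson intervals for Ifit1bl1, Isg15, Irf1, Ifngr1, Stat3 and Irf4 in the 8 samples, NS in blue and DS5 in red, filled where the raw count was above the limit. In the upper row the DS5 Ly6C-inter point is the highest, at 260.1 for Ifit1bl1, 47.9 for Isg15 and 115.5 for Irf1, and in the lower row the intervals of most samples overlap.

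To ask how stress changed the group within each population, DS5 was compared with NS. In Ly6C-inter cells 3 of the 25 genes (12%) were called higher, namely Ifit1bl1, Isg15 and Irf1, against 2.92% of all genes, and 0 were called lower, against 3.98%. Ifit1bl1 had the log2 ratio 4.54 (3.30 to 6.17), Isg15 had 2.10 (0.78 to 3.78) and Irf1 had 1.60 (0.86 to 2.42). By the lower limit of the interval they ranked 2, 20 and 17 among the 22 genes called higher, and Ly6c1 was first. The 3 genes rested on 1 sample of DS5 Ly6C-inter cells, the one in which Emp1, F11r, Ceacam1 and Itgam were also high. The part of other cell types in the result was not tested. In the 8 comparisons that did not use this sample 0 of the 25 genes were called.

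In the pair of Ly6C-inter samples 4 of the 25 genes were detected, namely Ifit1bl1, Isg15, Irf1 and Ifngr1, and Ifngr1 was at -0.22. The others were below the limit in both samples, so whether they followed the called genes was not detectable. The median log2 ratio of the 25 genes, most of them undetected, was -0.22 in Ly6C-inter cells. That of all genes was -0.26, and 12 of the 25 were higher and 13 lower. The sum of the 25 genes was 4.48% of the total count in DS5 Ly6C-inter cells (exact binomial 95% interval 4.14% to 4.83%) and 1.87% (1.54% to 2.24%) in NS Ly6C-inter cells. Without Ifit1bl1 the DS5 share was 2.53% (2.28% to 2.80%), against 1.78% (1.46% to 2.15%) in NS. These shares include background counts. The 25 genes summed to 111 counts in NS Ly6C-inter cells, where 106.2 would result if each were at the negative control mean. In DS5 Ly6C-inter cells these values were 636 and 209.4. Without Ifit1bl1 the share was 2.24% in DS5 monocytes and 2.34% in DS5 Ly6C-low cells, where 0 and 1 of the 25 were detected.

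By the fold alone, with no demand on the limit or the interval, more genes passed 1.5 between DS5 and NS. In monocytes 3 were higher and 6 lower, against 6.37% and 14.3% of all genes. In Ly6C-inter cells 5 were higher and 2 lower, against 7.29% and 13.9%, and in Ly6C-low cells 8 were higher and 0 lower, against 24.7% and 2.79%. In MHCII+ cells 0 passed in either direction, against 1.19% and 1.46%. All 9 genes in monocytes and all 8 in Ly6C-low cells were below the limit in both samples of the pair.

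In MHCII+ cells 0 of the 25 genes were called in either direction, against 0.133% of all genes higher and 0.663% lower. The 12 genes detected in at least 1 of these 2 samples had log2 ratios between -0.61 (Irf8) and 0.64 (Ifnar1), each with an interval that included 0, and 9 of them were detected in both. The median of all 25 was -0.01, and that of all genes 0.00. In monocytes 0 were called, against 0.398% of all genes higher and 0.0% lower, and no gene of the group was detected in either sample, so that a change was not detectable there. In Ly6C-low cells 0 were called, against 0.265% and 0.928% of all genes, and the group and all genes had the same median of 0.52. Only Ifngr1 was detected in that pair.

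**Figure D4:**
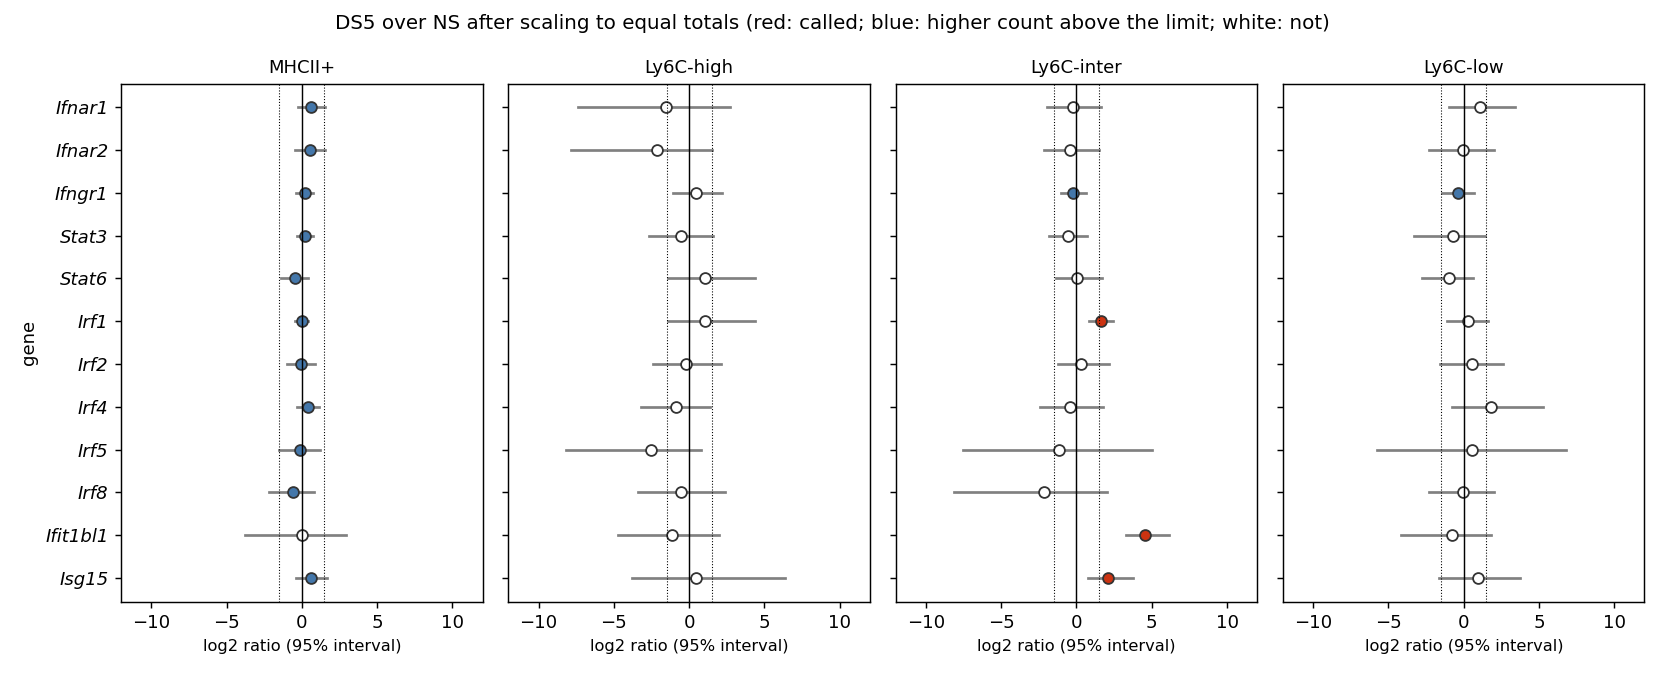
Log2 ratio of DS5 over NS after scaling to equal totals, with 95% counting intervals, for genes detected in at least 1 sample (rows) in the 4 populations (panels); dotted lines mark 1.5 in both directions. In Ly6C-inter cells Ifit1bl1 (4.54), Isg15 (2.10) and Irf1 (1.60) are red, as called, and in MHCII+ cells every interval includes 0.

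The stress ratio of each of the 25 genes in Ly6C-inter cells was then set against that in each other population, as the difference of 2 log2 ratios with an exact conditional interval of the 4 counts, without regard to the limit. Against MHCII+ cells 3 genes had an interval above 0 and 1 below it, beside 3.05% and 9.28% of all genes. Against monocytes 1 was above and 0 below (1.46% and 4.24%), and against Ly6C-low cells 1 was above and 1 below (1.86% and 6.9%). All of these differences share the sample of DS5 Ly6C-inter cells, and the intervals take in the error of counting alone. Ifit1bl1, whose ratio was higher in Ly6C-inter cells by 4.73 (1.19 to 8.45) than in MHCII+ cells, by 5.65 (2.11 to 9.37) than in monocytes and by 5.34 (2.24 to 8.87) than in Ly6C-low cells, was detected through that sample alone. Irf1 differed by 1.61 (0.73 to 2.54) from MHCII+ cells, and its intervals against monocytes, -2.92 to 3.16, and Ly6C-low cells, -0.24 to 2.92, included 0. For Isg15 all 3 intervals included 0. The other genes were Irf7, higher than in MHCII+ cells by 3.62 (0.04 to 9.15), and Stat5b, with differences of -3.06 (-5.48 to -0.67) from MHCII+ cells and -3.51 (-7.24 to -0.27) from Ly6C-low cells, but both were below the limit in every sample. Ifit1bl1, Irf1 and Isg15 had already been called by their ratio in Ly6C-inter cells, so that these differences describe them and are no separate evidence.

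Within DS5 the scaled levels of these 3 genes in Ly6C-inter cells, where they had been picked as high, are given against the other MHCII- populations as a description only. The log2 ratios over monocytes and over Ly6C-low cells were 5.26 (3.39 to 8.31) and 5.31 (3.44 to 8.36) for Ifit1bl1. They were 2.50 (1.34 to 3.98) and 1.81 (0.89 to 2.91) for Irf1. For Isg15 they were 2.82 (0.89 to 5.90) and 1.87 (0.42 to 3.79). In DS5 monocytes and Ly6C-low cells all counts of these 3 genes were below the limits. Ifngr1, the receptor chain, had -0.08 (-1.04 to 0.98) and -0.15 (-1.08 to 0.87) in the same pairs.

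The promoters of Ifit1bl1, Isg15 and Irf1 are shown because these genes were called together. Each window runs from 250 bases before to 50 bases after a gene start, as RefSeq annotates it on GRCm38.p6. Capitals mark matches, on either strand, to the core of the interferon-stimulated response element, GAAA-NN-GAAA (TTTC-NN-TTTC on the other strand), and to the gamma-activated site, TTCNNNGAA, which reads the same on both strands. The sites are chr19:34601919-34602218 on the minus strand for Ifit1bl1, chr4:156200769-156201068 on the minus strand for Isg15 and chr11:53769764-53770063 on the plus strand for Irf1.
Ifit1bl1: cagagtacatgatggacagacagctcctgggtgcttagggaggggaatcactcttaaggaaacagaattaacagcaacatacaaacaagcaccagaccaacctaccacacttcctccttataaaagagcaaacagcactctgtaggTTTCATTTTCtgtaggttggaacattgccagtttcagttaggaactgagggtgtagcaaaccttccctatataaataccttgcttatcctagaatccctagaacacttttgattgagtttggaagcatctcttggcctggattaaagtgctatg
Isg15: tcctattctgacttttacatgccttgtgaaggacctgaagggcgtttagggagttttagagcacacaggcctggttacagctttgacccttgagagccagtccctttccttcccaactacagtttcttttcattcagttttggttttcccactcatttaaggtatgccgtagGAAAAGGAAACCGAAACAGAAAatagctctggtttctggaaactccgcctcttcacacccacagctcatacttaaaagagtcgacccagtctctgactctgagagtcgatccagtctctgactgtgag
Irf1: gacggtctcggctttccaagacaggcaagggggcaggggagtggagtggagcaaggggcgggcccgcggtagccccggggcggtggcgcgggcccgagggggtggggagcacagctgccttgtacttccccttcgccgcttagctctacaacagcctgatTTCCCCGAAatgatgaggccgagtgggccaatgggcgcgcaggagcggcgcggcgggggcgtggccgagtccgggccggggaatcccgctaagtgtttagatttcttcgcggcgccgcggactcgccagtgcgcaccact

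The Ifit1bl1 window held 1 response element core, which began 104 bases before the start. The Isg15 window held 3 overlapping cores in a single run between 78 and 57 bases before the start. The Irf1 window held a gamma-activated site 90 bases before the start and no response element core. Ifit1bl1 and Irf1 each have a further window in the table. That of Ifit1bl1 held a core 23 bases before its start, and that of Irf1 held neither motif.

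Of the 25 genes, 22 had a window in the table, with 29 windows in all. The response element core was found in 7 of the 29 windows (24.1%), in Ifit1bl1, Ifit1bl2, Ifna1, Irf2, Isg15 and Stat4, against 3.44% of 32851 windows of all genes. The gamma-activated site was also found in 7 windows (24.1%), in Ifna1, Ifnar1, Ifnar2, Ifng, Irf1, Irf2 and Irf8, against 8.3% of all windows. Both motifs were thus also present in genes of the group that were not called, and a match is a description of the letters alone.

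MHCII+ cells were compared with each MHCII- population of the same condition at the threshold of 2. In NS, 0 of the 25 genes were called against monocytes (1.86% of all genes were called higher and 0.265% lower), against Ly6C-inter cells (1.59% and 1.33%) or against Ly6C-low cells (1.59% and 2.65%). The median log2 ratios of the group were -1.64, -0.67 and -1.19, and those of all genes -2.28, -1.16 and -1.20. The gene of the group with the highest ratio over NS monocytes was Irf1, with 104 and 2 counts, at 1.84 (-0.05 to 4.90).

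The result depended on the scale. Without scaling, the same 25 genes had medians of 2.22, 2.07 and 1.58, beside 1.58, 1.42 and 1.52 for all genes, so that the whole panel moved. Then 10, 9 and 7 of the 25 were called higher in NS MHCII+ cells, beside 35.4%, 25.6% and 26.4% of all genes, and 0 lower, beside 0.0%, 0.265% and 0.531%. Among them were Irf1, Irf2, Irf4, Ifnar1 and Stat3 in each of the 3 comparisons. In DS5 without scaling 7 were called higher over monocytes and 7 over Ly6C-low cells (24.0% and 23.1% of all genes) and 0 lower (0.531% and 0.133%). Raw counts compare the samples as hybridized, and scaled counts compare shares of the counted transcripts.

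By the fold alone, genes passed 2 only as lower in MHCII+ cells. In NS there were 12 against monocytes (52.1% of all genes), 5 against Ly6C-inter cells (24.5%) and 4 against Ly6C-low cells (21.8%), and 1.86%, 1.72% and 1.86% of all genes were higher. In DS5 there were 8 against monocytes (39.5%), 4 against Ly6C-inter cells (17.9%) and 8 against Ly6C-low cells (35.1%), and 2.25%, 3.18% and 2.39% of all genes were higher. Of these, only Ifit1bl1 and Isg15 against DS5 Ly6C-inter cells had a count above the limit in the MHCII- sample.

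In DS5, 0 genes were called against monocytes (1.99% and 0.928% of all genes) or Ly6C-low cells (1.72% and 0.796%). Against Ly6C-inter cells 2 of the 25 genes (8.0%) were called lower in MHCII+ cells, Ifit1bl1 and Isg15, beside 3.18% of all genes, and 0 were called higher, beside 2.79%. Ifit1bl1 had 2 and 277 counts and a log2 ratio of -8.02 (-11.26 to -6.34), and Isg15 had 19 and 51 counts and -2.52 (-3.36 to -1.73). Without scaling Ifit1bl1 was at -7.11 and Isg15 at -1.42, which was short of the threshold, while Irf4 was then called higher, so that 1 gene was called in each direction beside 9.95% of all genes higher and 1.99% lower. With scaling Irf1 was at -1.73 (-2.16 to -1.31), also short of it, but it passed at -2.04 with the mean of the negative control probes subtracted and at -2.69 when scaled to Ppia and Rpl19. The genes with a positive ratio in this pair included Irf4, at 1.19 (-0.01 to 2.60), and Stat3, at 0.74 (-0.08 to 1.64).

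**Figure D5:**
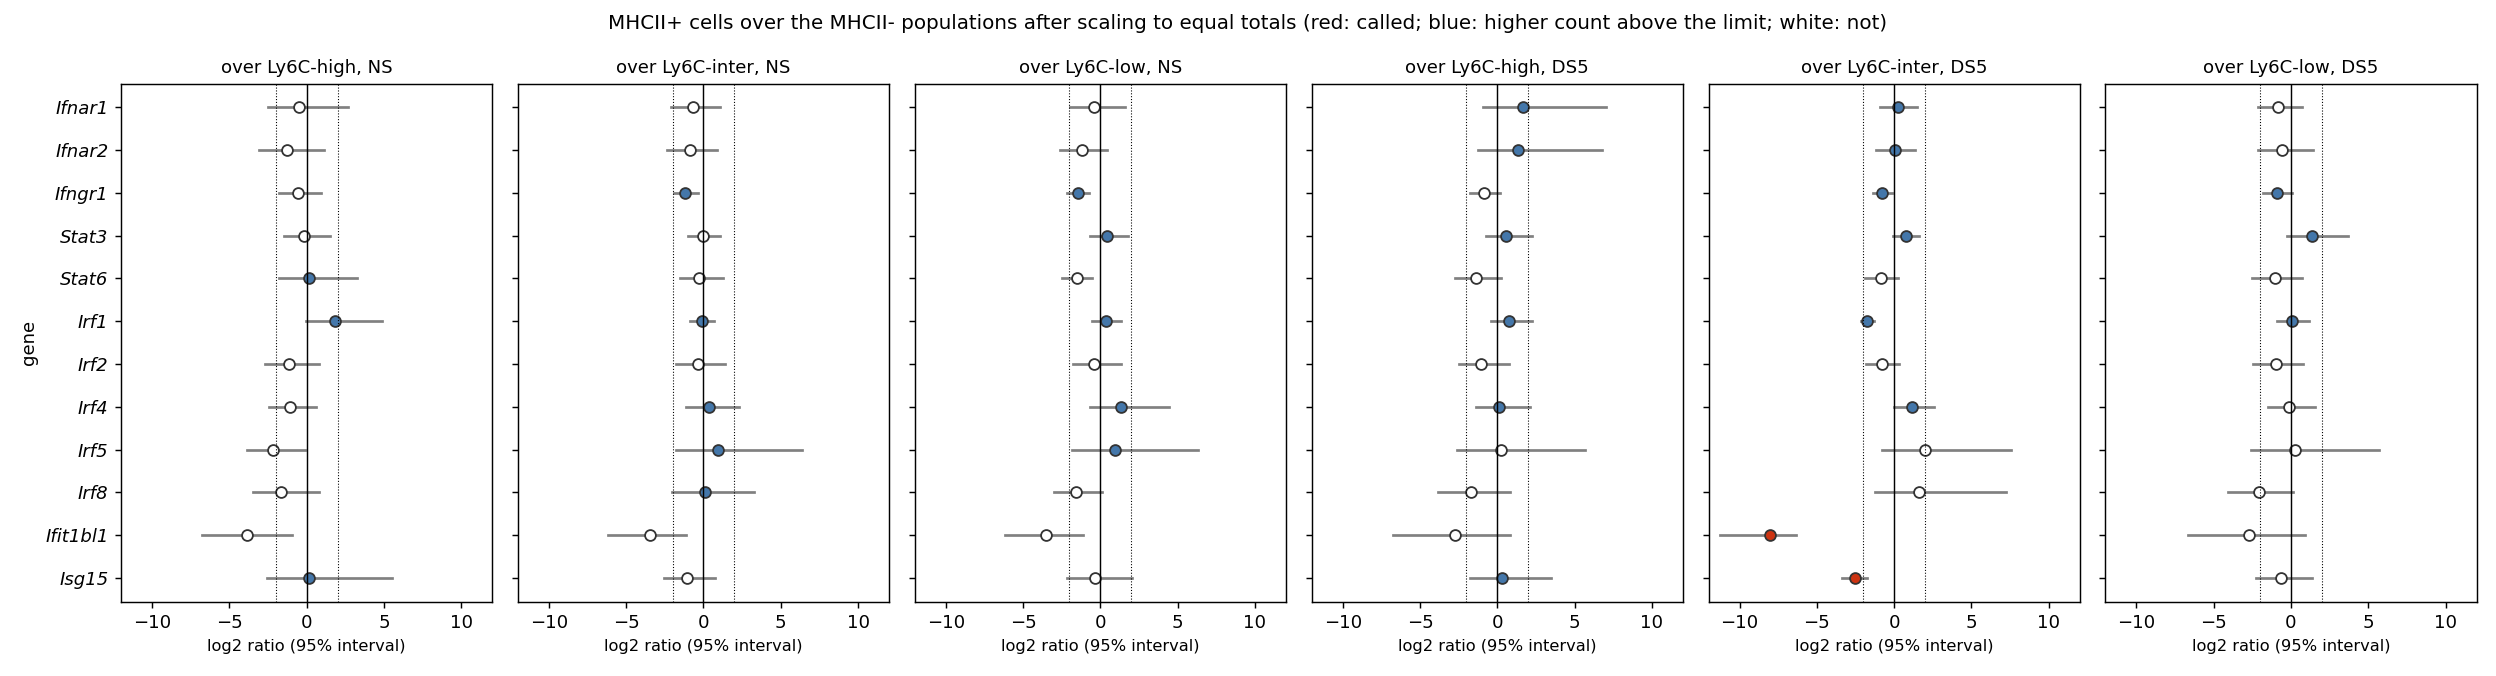
Log2 ratio of MHCII+ cells over each MHCII- population of the same condition after scaling to equal totals, with 95% counting intervals, for detected genes (rows) in 6 comparisons (panels); dotted lines mark 2 in both directions. Only Ifit1bl1 (-8.02) and Isg15 (-2.52) against DS5 Ly6C-inter cells are red, as called, and both are lower in MHCII+ cells.

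Genes that act around this pathway were read from a separate list of 66, of which 38 were measured and 18 were detected in at least 1 sample, beside 41.2% of all genes, or 17 without DS5 Ly6C-inter cells. In Ly6C-inter cells 1 of the 38 was called higher in DS5, beside 2.92% of all genes, and 6 were called lower, beside 3.98%. The median log2 ratio of the 38 was -0.53, and that of all genes -0.26. The higher gene was Cd274, which encodes the inhibitory ligand PD-L1 and is known to be induced by IFN-gamma. It had 7, 1, 3 and 3 counts in NS MHCII+ cells, monocytes, Ly6C-inter and Ly6C-low cells, while DS5 gave 9, 5, 154 and 6, with a log2 ratio of 4.43 (2.85 to 6.72) in Ly6C-inter cells. Its high count was again in the 1 sample of DS5 Ly6C-inter cells.

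The 6 lower genes were Socs3, an inhibitor of STAT3 signals, the oxidase subunit Cybb, the chemokines Ccl2, Ccl7 and Ccl12, and the co-stimulatory gene Cd86. Their log2 ratios lay between -2.60 (Ccl7) and -1.52 (Ccl2). Cxcl10, a chemokine known to be induced by interferons, had 4 counts in DS5 Ly6C-inter cells, below the limit, and in MHCII+ cells 35 (NS) and 42 (DS5). It was called higher in DS5 MHCII+ than in DS5 Ly6C-inter cells, at 2.30 (0.83 to 4.24). Psmb8, an immunoproteasome subunit, had 68, 3, 11 and 5 counts in NS and 38, 4, 42 and 6 in DS5, and it was above the limit in both MHCII+ samples and in DS5 Ly6C-inter cells. In MHCII+ cells, monocytes and Ly6C-low cells 0 of the 38 genes were called between DS5 and NS.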

How the data were processed

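Total RNA of sorted conjunctival cells was hybridized by the authors to the nCounter Mouse Myeloid Innate Immunity V2 panel, counted on a Digital Analyzer (software 3.0.1.4) and checked in nSolver 4.0.6.2. The authors deposited raw counts, 1 for each probe and sample, whole numbers of at least 1, for 754 genes, 8 negative and 6 positive control probes. A value of 1 can also stand for a smaller value. Groups came from the sample titles, with 1 pooled sample each.

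Counts were scaled to equal totals over the genes (13330 counts), values under 1 were set to 1, and 10 pairs of samples were compared by log2 ratio. Intervals are Clopper-Pearson at 95% for ratios and shares, Poisson for levels and Fisher's conditional interval for differences of ratios, and all cover counting error only. Named are genes above the negative control limit in at least 1 sample, called genes, and Stat5b, Mx1 and Irf7. The genes, lists and rules were chosen with earlier results of these data known. The dependence on scaling, floor, background, limit and threshold was tried. The comparison code was tested on simulated data. Sequences are RefSeq's, of GRCm38.p6. Scripts ran in Python 3.11.15 with scipy 1.17.1 for the intervals, pandas 2.3.3 and numpy 2.4.6 for the tables and matplotlib 3.10.9 for the plots. A single item of the group is counted but not reported here by itself.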

Additional observations from a re-analysis of the deposited data

Results flagged for a closer look

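The stress ratio of Ifit1bl1 in Ly6C-inter cells differed from that in MHCII+ cells by 4.73 on the log2 scale, from that in monocytes by 5.65 and from that in Ly6C-low cells by 5.34, and that of Irf1 differed from MHCII+ cells by 1.61. Irf7 differed from MHCII+ cells by 3.62, and Stat5b from MHCII+ cells by -3.06 and from Ly6C-low cells by -3.51, with all counts of both genes below the limit. Each had an exact conditional interval without 0, out of 75 differences (25 genes against 3 populations), and the intervals cover counting error only. Against MHCII+ cells the interval was above 0 for 12% of the genes and below for 4%, beside 3.05% and 9.28% of all genes. Against monocytes these were 4% and 0%, beside 1.46% and 4.24%, and against Ly6C-low cells 4% and 4%, beside 1.86% and 6.9%. All the differences share the sample of DS5 Ly6C-inter cells, through which alone Ifit1bl1 was detected. Ifit1bl1 and Irf1 had already been called by their ratio in that population, so their differences are no separate evidence.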

How the results depend on the processing

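No paired analysis was possible because within a population each condition had 1 sample, and the populations, which differ in kind, are not replicates of a condition. For the stress ratio in Ly6C-inter cells, Ifit1bl1 (3.46 to 6.81 on the log2 scale) and Irf1 (1.57 to 2.86) were called under every alternative tried, and Isg15 under all but counts raised to the limit, where it was 1.02. Calls by the fold alone gave 9, 7 and 8 genes between DS5 and NS in monocytes, in Ly6C-inter and in Ly6C-low cells. With the negative control mean subtracted Irf8 was called in MHCII+ cells (1 gene, lower). For MHCII+ cells over each NS population (Ly6C-high, Ly6C-inter, Ly6C-low), 10, 9 and 7 genes were called without scaling, 10, 9 and 7 with positive controls and 12, 5 and 4 by the fold alone, the last all lower. Reference genes gave 1 (Irf1) over NS monocytes, a threshold of 1 gave 1 (Ifngr1, lower) over NS Ly6C-inter and over NS Ly6C-low cells, and subtraction of the negative control mean gave 1 (Stat3) over NS Ly6C-low cells. For MHCII+ cells over DS5 monocytes and Ly6C-low cells, 7 and 7 genes were called without scaling, 8 and 9 with positive controls, 1 and 1 with reference genes (Ifnar1 and Stat3) and 8 and 8 by the fold alone, the last all lower. Over DS5 Ly6C-inter cells 1 gene was called with counts raised to the limit (Ifit1bl1), 4 with the negative control mean subtracted (with Irf1 lower at -2.04 and Irf4 higher), 3 with positive controls (Ifit1bl1 lower, Irf4 and Stat3 higher) and 4 by the fold alone. Isg15 was not called there without scaling (-1.42), with positive controls (-0.97) or with counts raised to the limit (-1.95). For these MHCII+ comparisons, shares over all genes were taken without scaling and by the fold alone, and under no other alternative. Without scaling 35.4%, 25.6% and 26.4% of all genes were called higher over the NS populations in that order. Over DS5 monocytes and Ly6C-low cells these were 24.0% and 23.1%. The counts of called genes under the alternatives thus describe the dependence on processing and are no result about the group. Of 2 scalings chosen after seeing the data, that to Ppia and Rpl19 gave 1 gene over NS Ly6C-low cells (Ifngr1, lower) and 3 over DS5 Ly6C-inter cells (with Irf1 lower at -2.69), and the one to totals without the 10 highest genes gave 1 over NS monocytes (Irf1), 1 over NS Ly6C-low cells (Irf4) and 1 over DS5 Ly6C-low cells (Stat3).

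With a limit of the mean + 3 SD, 5 genes were above it in DS5 MHCII+ cells and 0 in DS5 Ly6C-low cells. With the highest negative control probe as limit, 1 (Ifngr1) was above it in DS5 monocytes and 2 in DS5 Ly6C-low cells, and with 1 limit for all samples 7 were above it in DS5 Ly6C-inter cells and 0 in DS5 Ly6C-low cells. The other counts of genes above the limit were within 1.5 times the count given. In monocytes the total counts of 2728 and 3929 limit what can be detected.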
